A study of Mus musculus with 9 samples.

Results

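The genes described here are 32 genes of cholesterol synthesis, uptake and export in the mouse substantia nigra. They were chosen by gene symbol as known members of the pathway, with earlier results of these data known, so counts over them are descriptions. All 32 were among the 20591 rows of the deposited count table and among the 20535 genes tested. RNA-seq libraries had been made from lysate of the substantia nigra, a midbrain region with dopaminergic neurons, of wild type C57BL/6 mice. All mice, controls included, had undergone a sham operation and were 12 weeks old when diets were allocated. The IF 1 week group (n = 3 libraries) had 1 week of intermittent fasting (IF) with 3 fasts of 24 hours, the fasted 1 day group (n = 3) had a single 24 hour fast, and the ad libitum group (n = 3) had unrestricted food for 1 week. Fasts began 2 hours before lights off. How long after the last fast the mice were sampled is not stated, so "fasted libraries" below means libraries of either fasting group, whatever their feeding state at sampling. The ad libitum mice were moved between cages like the others. Whether the libraries of a group came from separate animals is not stated, and the tests therefore describe library-to-library spread, which may be technical in part.

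Cholesterol hardly crosses the blood-brain barrier, so the brain makes its own, from acetyl-CoA through mevalonate, squalene and lanosterol. SREBP2, the transcription factor encoded by Srebf2, switches on the genes of synthesis and uptake. Its precursor is carried by SCAP and is held in the endoplasmic reticulum by the INSIG proteins when sterols are plentiful. The liver X receptors (LXRs), which sense oxidized sterols, switch on genes of export such as Abca1. In the brain, oligodendrocytes use much of the cholesterol for myelin, astrocytes export it on apolipoprotein E particles, and neurons dispose of it by hydroxylation through Cyp46a1.

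Library totals ranged from 36109995 to 54248856 counts, and the least abundant of the 32 genes, Nr1h3, had at least 76 counts in every library. Levels are given as CPM, counts scaled to the size of the library with TMM factors of edgeR, and fold changes are on the log2 scale. Th and Slc6a3, which define dopaminergic neurons, were present in every library, at 76.1 to 296 CPM and 184 to 526 CPM, so tissue with such neurons was represented in all 9. Both were lowest in fasted 1 day replicate 3 and highest in IF 1 week replicate 1. Whether the dissected tissue differed between libraries was not tested. Replicate 2 of the fasted 1 day group and replicate 2 of the IF 1 week group stood apart, with the lowest quality weights in limma's voom model, 0.213 and 0.507, against 0.972 to 1.93 in the other libraries. Replicate 3 of the IF 1 week group carried Slc17a7, a glutamate transporter of cortical neurons, at 501 CPM, against 4.31 to 49.2 CPM elsewhere. Ad libitum replicate 2 differed most from the others in its counts (chi-square per gene 164 to 323.5 against each) and had the lowest TMM factor, 0.897. Values that these libraries move most are also given without them.

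None of the 32 genes passed edgeR's quasi-likelihood test (Benjamini-Hochberg, all genes adjusted together) in any of the 3 comparisons (0 of 32 each), against 0.307% of all genes for IF 1 week against ad libitum, 0.0584% for fasted 1 day against ad libitum and 0% for IF 1 week against fasted 1 day. At an unadjusted p below 0.05, 7 of 32 genes were past the line for IF 1 week against ad libitum, where 11.2% of all genes were. For fasted 1 day against ad libitum 3 of 32 were, with 9.27% of all genes, and for IF 1 week against fasted 1 day 0 of 32 were, with 5.22% of all genes. DESeq2, the other count test, called Dhcr7, Msmo1 and Abca1 after IF 1 week, Dhcr7 and Abca1 after the 1 day fast, and 0 of 32 between the fasted groups. Over all 20535 genes DESeq2 called 464, 186 and 7 in the same order, against 63, 12 and 0 by edgeR. Limma's voom with quality weights called Dhcr7 alone, after IF 1 week, and 0 of 32 in the other comparisons. Over all genes voom called 218, 57 and 0 in that order. Both comparisons against ad libitum share the same 3 control libraries, so their values are set side by side below and not counted as independent of each other.

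The genes with the smallest p-values had opposite roles in the pathway. Those below 0.05 and lower after IF 1 week were Dhcr7, Msmo1, Mvd, Ebp, Sqle and Tm7sf2, all enzymes of sterol synthesis, and the one that was higher was Abca1, the exporter. The 18 synthesis enzymes had a median log2 fold change of -0.17 after IF 1 week and -0.11 after the 1 day fast, beside medians of -0.03 and -0.02 in the other 14 genes and of 0.00 in all genes tested. Of the 18 enzymes, 6 were lower at an unadjusted p below 0.05 after IF 1 week and 2 after the 1 day fast, where 4.9% of all genes were lower in either comparison. None of the 18 was higher (0 of 18 in each), where 6.33% of all genes were after IF 1 week and 4.37% after the 1 day fast. Between the fasted groups 0 of 18 were lower or higher, beside 1.69% and 3.53% of all genes. Without ad libitum replicate 2, or without ad libitum replicate 3, the 6 became 3 (Dhcr7, Msmo1 and Mvd; 4.1% and 2.63% of all genes in those fits), and it was 4 without IF 1 week replicate 2 (3.52% of all genes) or without IF 1 week replicate 3 (3.64%). For the 1 day fast, the 2 became 1 (Dhcr7) when any one of the ad libitum libraries, or fasted 1 day replicate 2, was left out. The 8 enzymes that act between lanosterol and cholesterol had the lowest medians of the roles with 3 or more genes, -0.31 after IF 1 week and -0.25 after the 1 day fast. The bulk lysate holds many cell types, so fewer cells of a type and less RNA per cell cannot be told apart.

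**Figure D1:**
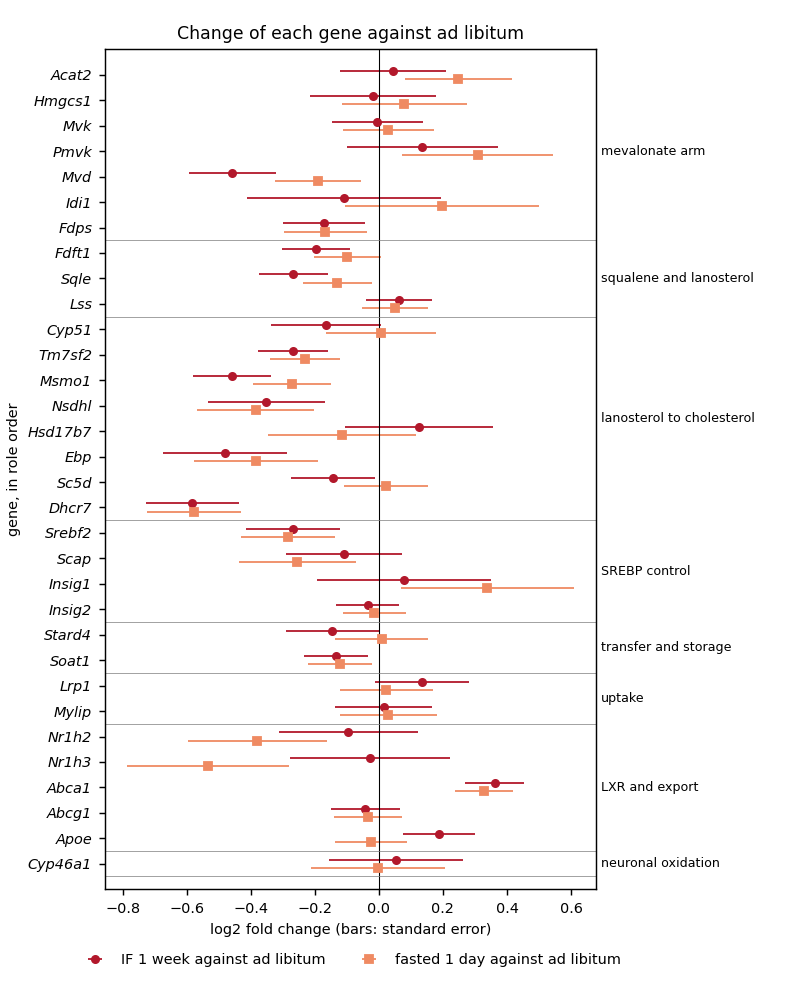
Log2 fold change of each of the 32 genes (horizontal axis) after IF 1 week (red circles) and after the 1 day fast (orange squares), each against ad libitum, with bars of 1 standard error and genes in role order. Dhcr7 lies at -0.58 in both and Abca1 at 0.36 and 0.33. The genes of transfer, storage, uptake and neuronal oxidation lie between -0.15 (Stard4) and 0.13 (Lrp1), both ends after IF 1 week.

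Promoter sequences from RefSeq (build GRCm38.p6) matched 27 of the 32 genes, and 5 are printed here, as the 250 bases before the gene's start on its own strand. Dhcr7, Msmo1 and Mvd are shown because they had the smallest p-values of the synthesis genes, Hmgcs1 because its window was the only member window with the sterol regulatory element searched for, and Abca1 because it was the gene with a higher level. Capitals mark matches, on either strand, to a sterol regulatory element (TCACNCCAC), a CCAAT box (CCAAT), a GC box (GGGCGG), an E box (CACGTG) and an LXR element (GGTTA and GGTCA with 5 bases of any kind between). In these 5 windows no match overlaps another.
Dhcr7 (chr7:143822917-143823166, plus strand): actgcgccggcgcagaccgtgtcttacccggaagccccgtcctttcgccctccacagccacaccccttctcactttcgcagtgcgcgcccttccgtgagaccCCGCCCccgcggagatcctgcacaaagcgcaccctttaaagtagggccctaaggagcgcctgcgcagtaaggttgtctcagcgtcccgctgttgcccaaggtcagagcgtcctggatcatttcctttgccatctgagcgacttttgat
Msmo1 (chr8:64733579-64733828, minus strand): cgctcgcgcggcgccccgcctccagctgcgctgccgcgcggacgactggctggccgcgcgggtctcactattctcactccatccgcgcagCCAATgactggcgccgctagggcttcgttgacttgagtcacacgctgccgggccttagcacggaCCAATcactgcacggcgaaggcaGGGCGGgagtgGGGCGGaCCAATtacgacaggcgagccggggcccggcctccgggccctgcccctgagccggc
Mvd (chr8:122443423-122443672, minus strand): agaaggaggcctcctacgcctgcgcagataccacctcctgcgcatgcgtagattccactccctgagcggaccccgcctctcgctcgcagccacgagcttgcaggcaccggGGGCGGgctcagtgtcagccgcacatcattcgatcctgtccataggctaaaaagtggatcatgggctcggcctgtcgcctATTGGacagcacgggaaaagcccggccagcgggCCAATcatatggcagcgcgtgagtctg
Hmgcs1 (chr13:119690101-119690350, plus strand): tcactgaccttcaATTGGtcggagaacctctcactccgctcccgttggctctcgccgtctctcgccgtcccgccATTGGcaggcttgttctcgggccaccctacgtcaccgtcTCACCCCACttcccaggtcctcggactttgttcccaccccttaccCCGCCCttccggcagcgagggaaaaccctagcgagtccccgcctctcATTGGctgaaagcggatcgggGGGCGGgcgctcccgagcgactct
Abca1 (chr4:53159896-53160145, minus strand): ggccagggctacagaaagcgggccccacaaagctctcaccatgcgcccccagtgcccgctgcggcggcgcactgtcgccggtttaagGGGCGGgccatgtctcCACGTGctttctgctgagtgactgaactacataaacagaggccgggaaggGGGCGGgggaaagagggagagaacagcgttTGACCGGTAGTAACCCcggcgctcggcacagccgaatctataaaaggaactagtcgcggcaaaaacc

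Over the full windows, which also hold the 50 bases after the start, a CCAAT box was found in 13 of 15 synthesis genes (86.7%), against 37.3% of the 16778 windows of tested genes. For a member with several windows, the one with the most annotated transcript starts near it was used. No such choice was made among all windows, so the shares are not strictly alike. The CCAAT box is bound by NF-Y, a known partner of SREBP2. GC boxes, which bind Sp1, were found in 14 of the 15 (93.3%), against 57.0% of all windows. The sterol regulatory element was rarer, in 1.11% of all windows and in Hmgcs1 alone among the 27, at 137 to 129 bases before the start. Only the letters TCACNCCAC were searched for, so elements with other letters or outside the windows were not counted. The other member windows are therefore not shown to lack such an element. The LXR element of Abca1 lay 67 to 52 bases before its start on the opposite strand, and the same letters were in 0.0536% of all windows; those letters were widened after the Abca1 window was read, so its match is not a search result. Dhcr7 and Abca1 had no CCAAT box in their windows, while Msmo1 had 3. The 5 genes Sqle, Fdps, Fdft1, Abcg1 and Stard4 had no entry.

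Levels per kilobase of transcript set the scale of the pathway in this tissue. Apoe, which encodes the main apolipoprotein of brain lipoproteins, was highest at 961 ± 83.9 CPM per kilobase in the IF 1 week group, 829 ± 59.7 in the fasted 1 day group and 844 ± 55.1 in the ad libitum group (SD, n = 3 each). Hmgcs1, Lrp1 and Insig1 followed, with means over all 9 libraries of 68.4, 63.2 and 57.8 CPM per kilobase, and these neighbours did not differ beyond the spread between libraries. Nr1h3, which encodes the LXR alpha receptor, was lowest at 1.34 CPM per kilobase, while Nr1h2, which encodes LXR beta, stood at 21.4 CPM per kilobase. Length was that of the longest protein-coding transcript in the GRCm38 annotation, so these levels are approximate.

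**Figure D2:**
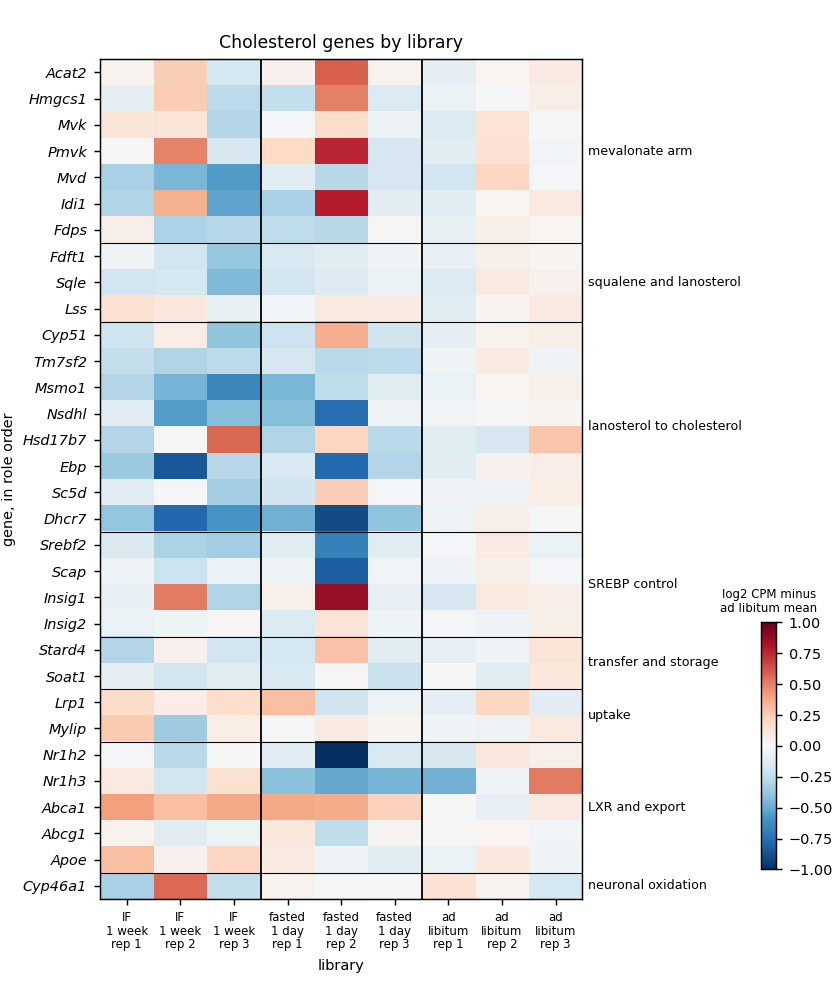
Log2 CPM of each of the 32 genes (rows, in role order) in each of the 9 libraries (columns), minus the mean of the ad libitum libraries. Red is higher and blue lower than that mean, and colours end at -1 and 1, past which only Nr1h2 in fasted 1 day replicate 2 falls. Msmo1, Ebp, Dhcr7 and Tm7sf2 are blue in all 6 fasted libraries, Abca1 is red in all 6, and fasted 1 day replicate 2 is the column with the strongest colours in both directions.

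The 7 members from the mevalonate arm, which builds farnesyl diphosphate from acetyl-CoA, had a median log2 fold change of -0.02 after IF 1 week and 0.08 after the 1 day fast. Without IF 1 week replicate 2 the IF 1 week median was -0.10, and without fasted 1 day replicate 2 the 1 day median was -0.11. Mvd was the gene of this arm with an unadjusted p below 0.05. It encodes the decarboxylase that turns diphosphomevalonate into isopentenyl diphosphate. Mvd had 10.8, 9.84 and 9.10 CPM in the IF 1 week libraries, 12.5, 11.2 and 12.1 CPM in the fasted 1 day libraries and 11.9, 15.7 and 13.3 CPM in the ad libitum libraries. All IF 1 week libraries lay below all libraries of both other groups, while the fasted 1 day libraries overlapped the ad libitum libraries, with 1 of the 3 below them. After IF 1 week the level was 0.728 times that of ad libitum (log2 fold change -0.46, SE 0.14, adjusted p = 0.231 by edgeR), with a 95% interval of -0.76 to -0.16, and after the 1 day fast the log2 fold change was -0.19 (adjusted p = 0.615). The unadjusted p stayed below 0.05 for IF 1 week in each of the 9 fits that left out 1 library.

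Hmgcs1, the synthase that makes HMG-CoA and the most abundant synthesis enzyme, had 219, 278 and 194 CPM in the IF 1 week libraries, 198, 330.2 and 212 CPM in the fasted 1 day libraries and 222, 233 and 245 CPM in the ad libitum libraries. Its highest value was in fasted 1 day replicate 2 and its next in IF 1 week replicate 2, and the groups overlapped. The log2 fold change was -0.02 after IF 1 week (SE 0.20, adjusted p = 0.985 by edgeR) and 0.08 after the 1 day fast (SE 0.20, adjusted p = 0.890). Without fasted 1 day replicate 2 the 1 day value was -0.19.

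The other 5 genes of the arm stayed within overlapping ranges. Idi1, the isopentenyl diphosphate isomerase, spanned 30.3 to 75.3 CPM, with its lowest value in IF 1 week replicate 3 and its highest in fasted 1 day replicate 2. Pmvk, the phosphomevalonate kinase, spanned 20.7 to 39.4 CPM and Acat2, the cytosolic acetoacetyl-CoA thiolase, 44.4 to 75.8 CPM, both highest in fasted 1 day replicate 2. Acat2 has a near-identical neighbour in the table, Acat3, between which Salmon divides reads, so its counts are uncertain. Mvk, the mevalonate kinase, spanned 14.3 to 19.9 CPM and Fdps, the farnesyl diphosphate synthase, 31.3 to 40.5 CPM. Their log2 fold changes lay between -0.17 for Fdps and 0.14 for Pmvk after IF 1 week, and adjusted p was at least 0.60 in both comparisons against ad libitum.

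Of the 3 enzymes that lead through squalene to lanosterol, Sqle was below 0.05. Squalene epoxidase, its product, adds the oxygen on which the sterol rings close. Sqle had 57.5, 58.3 and 48.3 CPM in the IF 1 week libraries, 57.7, 59.95 and 62.8 CPM in the fasted 1 day libraries and 59.7, 70.01 and 67.8 CPM in the ad libitum libraries. The IF 1 week libraries all lay below the ad libitum libraries, though the highest IF 1 week value came close to the lowest ad libitum value, and the fasted 1 day libraries overlapped both. The log2 fold change was -0.27 after IF 1 week (SE 0.11, adjusted p = 0.393 by edgeR) and -0.13 after the 1 day fast (adjusted p = 0.666). Its unadjusted p for IF 1 week was no longer below 0.05 without IF 1 week replicate 3 (-0.18), ad libitum replicate 2 (-0.22) or ad libitum replicate 3 (-0.24). Fdft1, the squalene synthase, spanned 61.3 to 82.8 CPM with log2 fold changes of -0.20 after IF 1 week (95% interval -0.43 to 0.04) and -0.10 after the 1 day fast (95% interval -0.33 to 0.14). Lss, the lanosterol synthase, spanned 38.6 to 46.7 CPM with log2 fold changes of 0.06 and 0.05 in the same order.

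The values furthest from the ad libitum group were in the last steps, from lanosterol to cholesterol. Dhcr7 encodes the reductase that completes cholesterol at the end of the pathway, the enzyme deficient in Smith-Lemli-Opitz syndrome. Dhcr7 had 28.3, 21.6 and 24.7 CPM in the IF 1 week libraries, 26.7, 20.04 and 28.2 CPM in the fasted 1 day libraries and 35.96, 38.9 and 37.1 CPM in the ad libitum libraries. Every fasted library of either kind lay below every ad libitum library, with a gap between 28.3 and 35.96 CPM. The fitted level was 0.668 times the ad libitum level after IF 1 week (log2 fold change -0.58, SE 0.15, adjusted p = 0.168 by edgeR) and 0.670 times after the 1 day fast (log2 fold change -0.58, SE 0.15, adjusted p = 0.325 by edgeR). The 95% intervals of the log2 fold change were -0.91 to -0.26 and -0.90 to -0.25. DESeq2 gave adjusted p = 0.0224 and 0.0496, and voom 0.0469 for IF 1 week, so the call depended on the test. The sign held in all 17 alternatives of each comparison. As the groups did not overlap, leaving libraries out could hardly have turned it, so the kept sign adds little. IF 1 week and fasted 1 day differed by -0.00 (95% interval -0.33 to 0.32).

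Msmo1 encodes the methyl sterol oxidase of the demethylation that comes after the step of Cyp51. Msmo1 had 50.4, 44.7 and 39.4 CPM in the IF 1 week libraries, 44.9, 51.8 and 56.5 CPM in the fasted 1 day libraries and 58.8, 62.3 and 63.9 CPM in the ad libitum libraries. All fasted libraries again lay below all ad libitum libraries, and the 2 fasted groups overlapped each other. The fitted level was 0.728 times the ad libitum level after IF 1 week (log2 fold change -0.46, SE 0.12, adjusted p = 0.179 by edgeR) and 0.828 times after the 1 day fast (log2 fold change -0.27, SE 0.12, adjusted p = 0.536 by edgeR). DESeq2 called it after IF 1 week alone, with adjusted p = 0.0426. For the 1 day fast its unadjusted p was not below 0.05 without fasted 1 day replicate 1 (-0.19), fasted 1 day replicate 2, IF 1 week replicate 2 or any one ad libitum library. Nor was it below 0.05 with DESeq2, RLE size factors, the filter at 1 CPM or the replicate block. The difference between IF 1 week and fasted 1 day was -0.19 (SE 0.12, adjusted p = 0.853 by edgeR), so the larger value after IF 1 week was not separated from the 1 day value.

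Ebp, the sterol isomerase, had 9.81, 7.04 and 10.5 CPM in the IF 1 week libraries, 11.4, 7.38 and 10.4 CPM in the fasted 1 day libraries and 11.8, 13.1 and 13.3 CPM in the ad libitum libraries. Its ad libitum libraries were all above its fasted libraries, and the lowest value in each fasted group was in replicate 2. After IF 1 week the log2 fold change was -0.48 (SE 0.19, adjusted p = 0.393 by edgeR), and -0.38 after the 1 day fast (adjusted p = 0.548). Without IF 1 week replicate 2 the IF 1 week value was -0.32 and its unadjusted p was no longer below 0.05, which also held without ad libitum replicate 2 or 3. Without fasted 1 day replicate 2 the 1 day value was -0.22. Tm7sf2, a sterol reductase, had 9.99, 9.54 and 9.82 CPM in the IF 1 week libraries, 10.5, 9.79 and 9.82 CPM in the fasted 1 day libraries and 11.4, 12.5 and 11.5 CPM in the ad libitum libraries. The fasted libraries all lay below the ad libitum libraries, with a small spread in each group, and the log2 fold changes were -0.27 after IF 1 week (SE 0.11, adjusted p = 0.398 by edgeR) and -0.23 after the 1 day fast (adjusted p = 0.544). The unadjusted p of Tm7sf2 for IF 1 week was not below 0.05 when any one IF 1 week or ad libitum library was left out, at values of -0.29 to -0.23.

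The other 4 enzymes of this stretch did not pass 0.05. Nsdhl, the dehydrogenase that follows Msmo1, had no overlap between fasted and ad libitum libraries either, with log2 fold changes of -0.35 after IF 1 week (95% interval -0.76 to 0.05) and -0.38 after the 1 day fast (95% interval -0.79 to 0.02). Hsd17b7, the ketoreductase of the same demethylation, spanned 18.6 to 34.2 CPM, highest in IF 1 week replicate 3. Cyp51, the lanosterol demethylase, spanned 49.6 to 83.9 CPM and Sc5d, the sterol desaturase, 58.5 to 87.8 CPM, each lowest in IF 1 week replicate 3 and highest in fasted 1 day replicate 2.

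**Figure D3:**
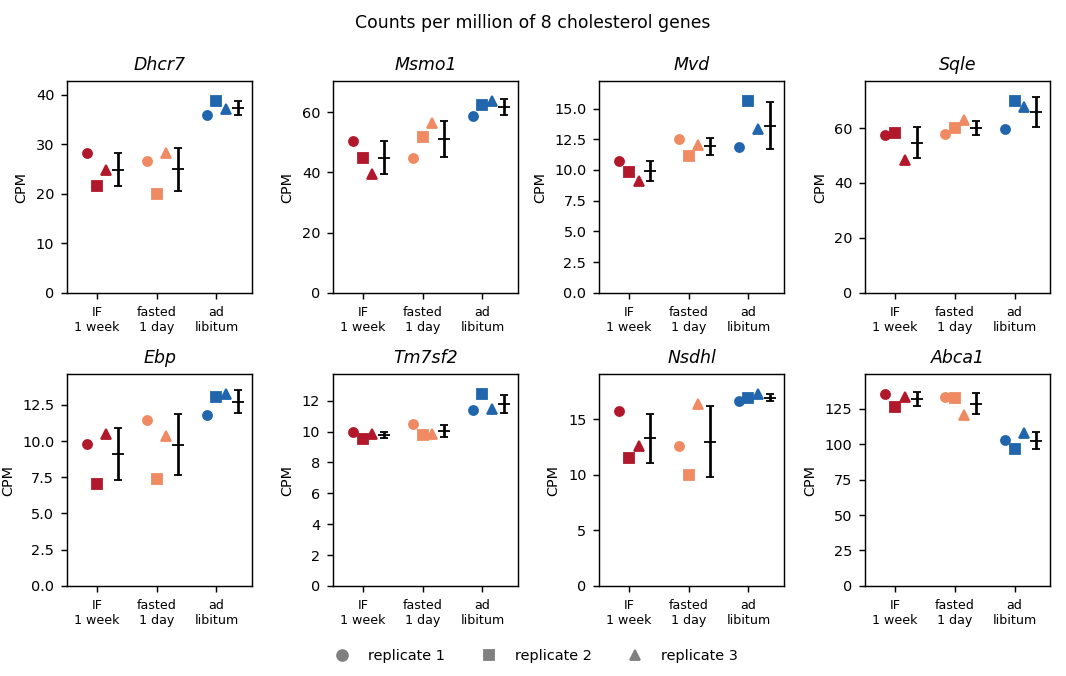
CPM (vertical axes, starting at 0) of 8 genes in each library of the IF 1 week (red), fasted 1 day (orange) and ad libitum (blue) groups, with marker shapes for the replicate number and black bars for the mean and 1 SD of 3 libraries. In Dhcr7, Msmo1, Ebp, Tm7sf2 and Nsdhl all fasted points lie below all ad libitum points, in Abca1 all lie above, and in Mvd and Sqle this holds for IF 1 week alone.

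Counted over the 18 synthesis enzymes, 7 had IF 1 week libraries that all lay below the ad libitum libraries (Mvd, Sqle, Tm7sf2, Msmo1, Nsdhl, Ebp and Dhcr7), where 11.5% of all genes did, and 5 had such fasted 1 day libraries (the same without Mvd and Sqle), where 10.3% did. Among all 32 genes the counts were 9 and 6, with Srebf2 added in both and Scap after IF 1 week. Without IF 1 week replicate 2 the 7 became 11, beside 18% of all genes. The 5 became 8 without fasted 1 day replicate 2 (15.3% of all genes) and 9 without ad libitum replicate 1 (15.4%). Leaving a library out can only keep or raise such counts, so these rises do not show a stronger difference. No synthesis enzyme lay wholly above ad libitum in either comparison, where 10.9% of all genes did after IF 1 week and 8.17% after the 1 day fast. Negative log2 fold changes were found for 14 of the 18 after IF 1 week and 10 of the 18 after the 1 day fast, against 50.2% and 49.9% of all genes. The 10 became 15 without fasted 1 day replicate 2, 13 without ad libitum replicate 1 and 9 without ad libitum replicate 3. Without ad libitum replicate 3 the 1 day median of the 18 was -0.03. The 14 became 15, 13 and 12 without ad libitum replicates 1, 2 and 3.

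Among the 4 genes of SREBP control, the transcription factor was lower in value and its regulators were not uniform. Srebf2 had 223, 198 and 194 CPM in the IF 1 week libraries, 227, 155 and 227 CPM in the fasted 1 day libraries and 244, 261 and 236 CPM in the ad libitum libraries. All fasted libraries lay below all ad libitum libraries, and the lowest was fasted 1 day replicate 2. The log2 fold change was -0.27 after IF 1 week (SE 0.15, adjusted p = 0.555 by edgeR) and -0.28 after the 1 day fast (SE 0.15, adjusted p = 0.555). Without fasted 1 day replicate 2 the 1 day value was -0.12. Scap, which encodes the SREBP escort protein, spanned 58.2 to 107 CPM, and its lowest value was in that same library.

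Insig1 is itself a target of SREBP2 and, as such, a common readout of its activity. Insig1 had 132, 199.8 and 114 CPM in the IF 1 week libraries, 145, 256 and 133 CPM in the fasted 1 day libraries and 125, 150.2 and 147 CPM in the ad libitum libraries. The 2 highest values were in fasted 1 day replicate 2 and IF 1 week replicate 2, and the other 7 libraries lay between 113.9 and 150.2 CPM. The log2 fold change was 0.08 after IF 1 week (SE 0.27, adjusted p = 0.941 by edgeR) and 0.34 after the 1 day fast (SE 0.27, adjusted p = 0.655). Without IF 1 week replicate 2 the IF 1 week value was -0.18, and without fasted 1 day replicate 2 the 1 day value was -0.02, both of the opposite sign. Its paralog Insig2, which has the same retaining role and is controlled differently, had 38, 38.6 and 40.2 CPM in the IF 1 week libraries, 36.2, 43.6 and 38.8 CPM in the fasted 1 day libraries and 39.6, 38.5 and 41.6 CPM in the ad libitum libraries. Insig2 varied little, with log2 fold changes of -0.03 (95% interval -0.25 to 0.18) and -0.01 (95% interval -0.23 to 0.20).

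**Figure D4:**
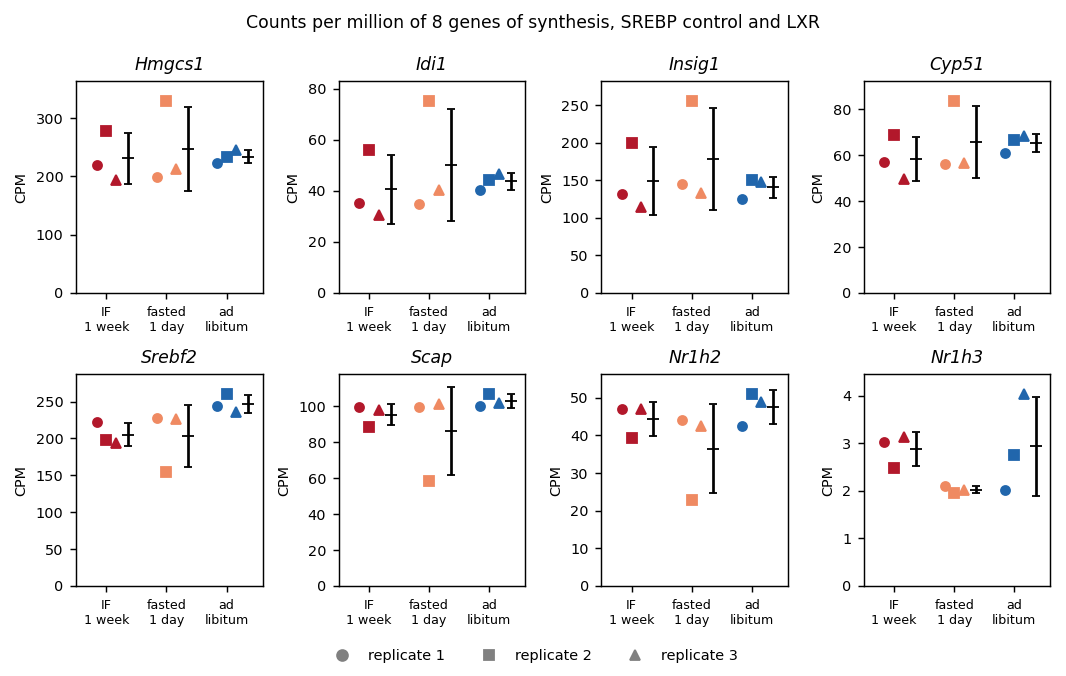
CPM (vertical axes, starting at 0) of 8 genes of synthesis, SREBP control and LXR in each library, with the same colours, shapes and bars (mean and 1 SD of 3 libraries) as in the plot of the 8 genes led by Dhcr7. Fasted 1 day replicate 2 (orange square) is the highest point for Hmgcs1, Idi1, Insig1 and Cyp51 and the lowest for Srebf2, Scap and Nr1h2, while Nr1h3 is low in all fasted 1 day libraries.

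Single libraries held many of the extreme values. Fasted 1 day replicate 2 was the highest of the 9 libraries in 10 of the 32 genes (31.2%; 23.3% of all genes), among them Hmgcs1, Idi1, Cyp51 and Insig1, and the lowest in 8 (25%; 24.9% of all genes), among them Dhcr7, Nsdhl, Srebf2 and Scap. IF 1 week replicate 3 was the lowest in 11 of 32 (34.4%; 14.9% of all genes), each of them a synthesis enzyme except Insig1. Ad libitum replicate 2 was the highest in 9 (28.1%; 8.72% of all genes), among them Dhcr7, Mvd, Sqle and Srebf2. The median log2 difference of the 18 enzymes from the ad libitum mean was -0.15, -0.09 and -0.32 in the IF 1 week libraries, -0.19, -0.00 and -0.12 in the fasted 1 day libraries and -0.10, 0.04 and 0.05 in the ad libitum libraries. Ad libitum replicate 1 thus lay among the fasted libraries.

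Marker genes of some cell types also differed in value between the groups. The summed CPM of the 14 oligodendrocyte markers was 10929 to 12577 in the IF 1 week libraries, 10379 to 12323 in the fasted 1 day libraries and 12425 to 15148 in the ad libitum libraries, with median log2 fold changes of -0.43 and -0.39 against ad libitum. The 12 microglial markers summed to 236 to 372, 259.7 to 310.4 and 369 to 412 CPM in the same order, and their medians were -0.35 and -0.51. The 12 astrocyte markers summed to 5928 to 6306, 5714 to 6399 and 5647 to 5849 CPM, with medians of 0.09 and 0.11. The 10 neuron markers had medians of -0.02 and -0.01, and their sums overlapped between all groups. Sums also overlapped ad libitum for oligodendrocytes and microglia after IF 1 week, and for astrocytes after the 1 day fast. IF 1 week replicate 3, the lowest library for synthesis, had 632 CPM of the 6 measured cortical neuron markers, against 99.4 to 176 CPM in the other 8 libraries. Ad libitum replicate 3 had 399 CPM of the 7 choroid plexus and ependymal markers, against 32.1 to 78.04 CPM in the other 8. Most of that sum, 335 CPM, was Ttr. Ad libitum replicate 3 was also the highest library for Nr1h3. None of the markers measured in these lists was at 0 in any library. The part of these markers in the values of the synthesis genes and of Abca1 was not tested.

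**Figure D5:**
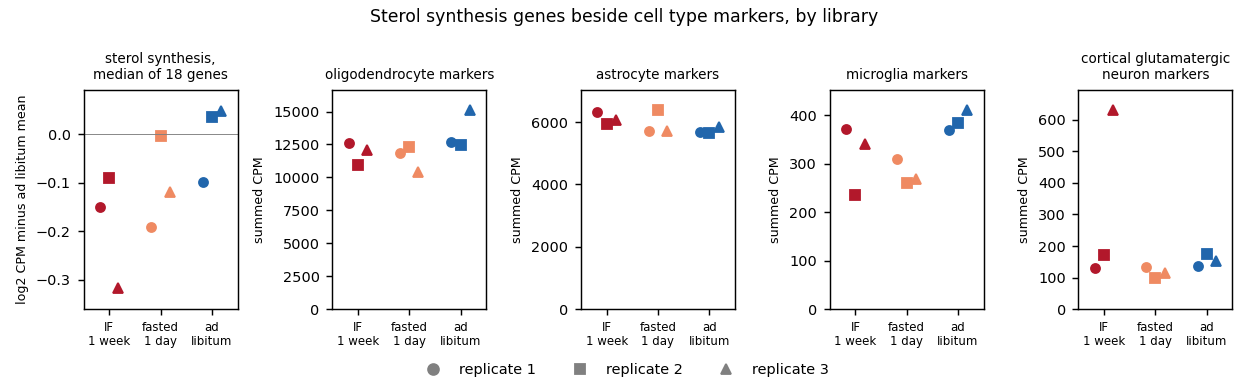
The left panel gives, for each library, the median over the 18 synthesis enzymes of log2 CPM minus the ad libitum mean, and the other panels give the summed CPM (axes starting at 0) of 4 marker lists. IF 1 week is red, fasted 1 day orange and ad libitum blue, with marker shapes for the replicate number. IF 1 week replicate 3 is the lowest library on the left (-0.32) and the highest for cortical neuron markers (632 CPM), and oligodendrocyte markers reach their highest sum in ad libitum replicate 3.

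Transfer, storage and uptake showed small differences. Soat1, which encodes the enzyme that esterifies cholesterol for storage, had 58.2, 54.6 and 57.2 CPM in the IF 1 week libraries, 55.7, 62.6 and 53.2 CPM in the fasted 1 day libraries and 62.3, 57.4 and 66.9 CPM in the ad libitum libraries. The ranges overlapped, and the log2 fold changes were -0.13 after IF 1 week (adjusted p = 0.677 by edgeR) and -0.12 after the 1 day fast (adjusted p = 0.667). Stard4, a sterol transfer protein, spanned 28.3 to 42.3 CPM. Lrp1, a large endocytic receptor for apolipoprotein E particles, had 1025, 943 and 1018 CPM in the IF 1 week libraries, 1109, 788 and 869 CPM in the fasted 1 day libraries and 845, 1043 and 834 CPM in the ad libitum libraries. Its spread within the ad libitum group covered most of the values of the other groups, and the log2 fold changes were 0.13 after IF 1 week (95% interval -0.19 to 0.46) and 0.02 after the 1 day fast (95% interval -0.30 to 0.35). Mylip, a ubiquitin ligase induced by LXR that limits lipoprotein uptake, spanned 12 to 18.5 CPM, and both ends of that span were in the IF 1 week group.

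Of the 5 genes of LXR and export, Abca1 had fasted libraries wholly above ad libitum. It encodes the transporter that hands cholesterol to apolipoprotein particles. Abca1 had 136, 126 and 133 CPM in the IF 1 week libraries, 133, 132 and 120.3 CPM in the fasted 1 day libraries and 103, 96.5 and 108 CPM in the ad libitum libraries. The lowest fasted value lay above the highest ad libitum value, and the spread within each group was small. The level was 28.5% higher after IF 1 week (log2 fold change 0.36, SE 0.09, adjusted p = 0.171 by edgeR) and 25.6% higher after the 1 day fast (log2 fold change 0.33, SE 0.09, adjusted p = 0.383 by edgeR). The 95% intervals were 0.16 to 0.56 and 0.13 to 0.53. The sign held in all 17 alternatives of each, which leaving libraries out could hardly have changed in groups that did not overlap. Abca1 was the 1 gene of the 32 with groups apart and higher in either comparison, beside 10.9% of all genes after IF 1 week and 8.17% after the 1 day fast. DESeq2 called it in both, with adjusted p = 0.00724 and 0.0343, which edgeR and voom did not.

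Abcg1, which also exports sterols and is also induced by LXR, spanned 96.2 to 123 CPM with log2 fold changes of -0.04 (95% interval -0.28 to 0.20) and -0.03 (95% interval -0.27 to 0.20). Apoe had 1459, 1225 and 1373 CPM in the IF 1 week libraries, 1259, 1149 and 1094 CPM in the fasted 1 day libraries and 1135, 1277 and 1153 CPM in the ad libitum libraries. Its groups overlapped, with log2 fold changes of 0.19 after IF 1 week (SE 0.11, adjusted p = 0.596 by edgeR) and -0.03 after the 1 day fast (SE 0.11, adjusted p = 0.946). Nr1h2 spanned 22.8 to 51.1 CPM, and its lowest value, in fasted 1 day replicate 2, was far below the other 8 libraries, which began at 39.3 CPM. Nr1h3 spanned 1.96 to 4.05 CPM, with its log2 fold change at -0.03 after IF 1 week and -0.53 after the 1 day fast (95% interval -1.09 to 0.03).

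Cyp46a1, the neuronal hydroxylase that makes cholesterol soluble for removal from the brain, had 55.5, 103 and 58.9 CPM in the IF 1 week libraries, 71.2, 68.6 and 69.4 CPM in the fasted 1 day libraries and 76.9, 71 and 61.6 CPM in the ad libitum libraries. IF 1 week replicate 2 was the highest of the 9 and the other IF 1 week libraries were the 2 lowest. The log2 fold change was 0.05 after IF 1 week (SE 0.21, adjusted p = 0.948 by edgeR) and -0.00 after the 1 day fast (SE 0.21, adjusted p = 0.999). Without IF 1 week replicate 2 the IF 1 week value was -0.28.

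IF 1 week against fasted 1 day compares repeated fasts over 1 week with a single fast, without the ad libitum libraries in the difference. The number of fasts, the time on the regimen and the feeding state at sampling cannot be told apart in it. The median log2 fold change was -0.02 over the 32 genes and -0.10 over the 18 enzymes, of which 15 were negative against 50.1% of all genes. Without fasted 1 day replicate 2 the median of the 18 was -0.04, and 10 were negative. Mvd was the gene whose IF 1 week libraries all lay below the fasted 1 day libraries (log2 fold change -0.27, SE 0.14, adjusted p = 0.853 by edgeR), where 3.28% of all genes did. Nr1h3 was the gene whose IF 1 week libraries all lay above (log2 fold change 0.51, SE 0.25, adjusted p = 0.853 by edgeR), where 4.5% of all genes did; it had 3.03, 2.48 and 3.14 CPM in the IF 1 week libraries and 2.10, 1.96 and 2.03 CPM in the fasted 1 day libraries. The 7 enzymes of the mevalonate arm had negative values, with a median of -0.17, between -0.31 for Idi1 and a value near 0 for Fdps. Those signs rested on fasted 1 day replicate 2: without it the median was 0.05, and 5 of the 7 (Acat2, Hmgcs1, Idi1, Mvk and Pmvk) were positive.

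Other genes of sterol metabolism were listed by role. Of 17 further genes of sterol and isoprenoid synthesis and its control, 0 passed edgeR's test in any comparison (DESeq2 counts were not made for these lists). At an unadjusted p below 0.05 the count was 0 after IF 1 week, 1 lower after the 1 day fast and 0 between the fasted groups. Among all genes 11.2%, 9.27% (4.9% lower) and 5.22% were below 0.05 in the same order. The 1 gene was Coq2, a prenyltransferase of coenzyme Q synthesis, at -0.33 (SE 0.13, adjusted p = 0.516 by edgeR) after the 1 day fast. Among the next smallest p-values there were those of Aacs (-0.23) and Pgrmc1 (0.19), and after IF 1 week the 4 smallest belonged to Por (0.25), Coq2 (-0.24), Cyb5r3 (0.19) and Ggps1 (-0.17). Between the fasted groups they were Pgrmc1 (-0.21), Ggps1 (-0.21), Aacs (0.17) and Por (0.17). None of these log2 fold changes had an adjusted p below 0.478.

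Of 27 further genes of transport, export and oxidation, 0 passed edgeR's test in any comparison, while 5 were lower and 1 higher at an unadjusted p below 0.05 after IF 1 week, beside 4.9% and 6.33% of all genes. After the 1 day fast 5 were lower, beside 4.9% of all genes, and between the fasted groups 0 were past it, beside 5.22%. Pltp, the phospholipid transfer protein of lipoproteins and a known LXR target, had 66.8, 44.2 and 47.7 CPM in the IF 1 week libraries, 56.7, 37.2 and 51.8 CPM in the fasted 1 day libraries and 72.1, 88.3 and 90.1 CPM in the ad libitum libraries. Its fasted libraries all lay below ad libitum, opposite in direction to Abca1, with log2 fold changes of -0.66 (SE 0.19, adjusted p = 0.226) after IF 1 week and -0.78 (SE 0.19, adjusted p = 0.313) after the 1 day fast, by edgeR. After IF 1 week the next were Lipa, the lysosomal acid lipase (-0.36), Apod, a glial apolipoprotein (0.49), and Vldlr, an apolipoprotein E receptor (-0.30). After the 1 day fast they were Lcat, which esterifies cholesterol in lipoproteins (-0.75), Cyp27a1, a sterol hydroxylase (-0.79), and Scarb1, a lipoprotein receptor (-0.45). Between the fasted groups the smallest p-values were those of Apod (0.36), Lipa (-0.24), Abca7 (0.28) and Vldlr (-0.18).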

How the data were processed

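Salmon, a program that assigns reads to transcripts, DESeq2 1.40.2 and the builds GRCm39 and mm39 are named in the submitters' processing notes. Which Salmon version, which annotation and how transcripts were joined into genes are points the sources used here do not give. What the authors deposited are estimated counts, whole numbers for every gene in every library without scaling to depth (lowest row mean 9.89), in which near-identical transcripts share reads. The labels' protocols name polyA RNA and a directional kit.

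From these, edgeR 4.0.16 (R 4.3.3) with TMM factors and filterByExpr (minimum count 10, minimum total 15; 56 rows removed) fitted a robust quasi-likelihood model to all 9 libraries. Tests were two-sided, adjusted over 20535 genes, threshold 0.05. Standard errors and 95% intervals came from the F statistics. Alternatives used DESeq2 1.42.0, limma 3.58.1 and other settings, given in the closing section. The fits were tested on simulated data. No pair of libraries agreed within sampling noise (chi-square per gene at least 26.5). Values in all libraries are given for genes with an unadjusted p below 0.05, for the most abundant gene of each role and for Srebf2, Insig1, Insig2, Abca1 and Cyp46a1; of the further genes, the 4 smallest p-values per list and comparison are named, except 1 gene that is not reported here. Members, gene lists and motifs were chosen with earlier results of these data known.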

Additional observations from a re-analysis of the deposited data

How the results depend on the processing

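Over 17 alternatives per comparison (DESeq2, RLE size factors, no filter, genes at 1 CPM or more in 6 libraries, the 6 libraries compared alone, voom with quality weights, a replicate block, each library left out, and both replicate 2 libraries left out), 171 counts and medians stayed near their value and 16 moved. The number of the 32 genes past the test was 2 after the 1 day fast and 3 after IF 1 week with DESeq2, and 1 after IF 1 week with voom, against 0 in edgeR; the cause was not tested. Alternatives for the count of synthesis enzymes lower at an unadjusted p below 0.05, and for the medians and signs of single roles, were chosen after seeing the data. After the 1 day fast the count was 1 with DESeq2, RLE size factors or the 1 CPM filter, and 1 to 3 with 1 library left out. After IF 1 week it was 3 to 8 with 1 library left out. The median log2 fold change of the 32 genes after the 1 day fast was -0.12 with voom and -0.12 without both replicate 2 libraries, and -0.12 to -0.012 with 1 library left out. For IF 1 week against fasted 1 day it was -0.092 to 0.016 with 1 library left out. That median was positive without fasted 1 day replicate 2 alone. Among the 15 genes with values in all libraries the sign turned under at least 1 alternative for 4 after IF 1 week (Cyp46a1, Hmgcs1, Insig1 and Insig2), for 6 after the 1 day fast (these and Apoe and Lrp1) and for 9 between the fasted groups; none of these values passed a test.

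Replicate numbers did not pair the libraries. Same-numbered libraries correlated in their deviations from group means at -0.24 to 0.41 over 16266 genes, and 3 of 9 libraries correlated best with their own number. With the replicate block, 0 of 32 genes passed in each comparison, 5 enzymes were lower at an unadjusted p below 0.05 after IF 1 week (4.88% of all genes) and 3 after the 1 day fast (5.71%), and over all genes 32, 2 and 0 passed for IF 1 week and fasted 1 day against ad libitum and between the fasted groups, against 63, 12 and 0 without it. Over all genes DESeq2 called 464, 186 and 7 and voom 218, 57 and 0 in the same order. With 3 libraries per group, p-values over 0.05 leave differences of the size of the intervals above undetected.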
